A study of Mus musculus with 6 samples.

Results

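B-lineage transcription factors were examined as a set of 10 genes, Ebf1, Pax5, Tcf3, Ikzf1, Ikzf3, Foxo1, Bach2, Pou2af1, Spib and Lef1, chosen by symbol out of the 24063 gene symbols in the count files. Their transcripts were measured by RNA sequencing in LSK cells, the lineage-negative, Sca-1+ and c-Kit+ fraction of mouse bone marrow that contains haematopoietic stem cells and early progenitors. The comparison asked how loss of Asxl2, a gene encoding a Polycomb-associated protein, alters transcript levels in these cells. The 3 Asxl2-/- libraries and the 3 control libraries came from C57BL/6 mice, and all 6 carry the Mx1-cre label and were taken after pIpC, a double-stranded RNA analogue that induces interferon, had been injected. In the study's model, LoxP sites flank exon 11 of Asxl2 and Cre is driven by the interferon-responsive Mx1 promoter, which is also active outside blood cells. The controls therefore share Cre and pIpC and have Asxl2 wt/wt alleles. Ages are not given in the labels.

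B-cell development is directed by a network of transcription factors. Tcf3 (E2A) and Ikzf1 (Ikaros) already act in multipotent progenitors, Ebf1 and Foxo1 specify the B-cell programme, and Pax5 commits cells to it by activating B-cell genes and silencing those of other lineages. Further factors act later or alongside: Pou2af1 is a coactivator of the octamer-binding Oct proteins, Spib is an ETS factor close to PU.1 that is also known from plasmacytoid dendritic cells, Bach2 is a repressor that restrains plasma cell differentiation, Ikzf3 (Aiolos) is an Ikaros relative of maturing B cells, and Lef1 is a Wnt effector of lymphoid progenitors and pro-B cells.

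The files were of 2 kinds, which bears on every value below. Gene-count files, with 1 read count per transcript, hold Asxl2-/- replicates 1 and 3 and control replicate 2, and their totals lay between 25528740 and 29136231 counts. Exon-count files, with 1 count per exon, hold Asxl2-/- replicate 2 and control replicates 1 and 3, and their totals lay between 53151198 and 55036924, where a spliced read can be counted once for each exon it touches. The kind of file was therefore a term in the model, and levels are given as CPM, the counts scaled to the normalised library size, to be compared within 1 kind of file. The groups also differed in sex-linked transcripts: counts of 4 Y-linked genes were at most 2 in the Asxl2-/- libraries and from 1026 to 4807 in the controls, and Xist had from 49540 to 66689 counts against 590 to 3194. Sex and genotype cannot be told apart in any comparison here. Asxl2 itself had 3533 to 4804 counts in the Asxl2-/- libraries and 3543 to 4433 in the controls, and its log2 fold change was 0.11 (adjusted p 0.469 by edgeR). In the exon-count files, exon 11 took 0.583% of the Asxl2 exon counts in Asxl2-/- replicate 2 (28 of 4804, Wilson 95% interval 0.404% to 0.841%), 10.3% in control replicate 1 and 12.0% in control replicate 3. Of the sort markers, Kit, Ly6a, Cd34 and Ptprc had at least 40.5 CPM in every library, and none passed by edgeR, at an unadjusted p under 0.05, or by DESeq2. Ly6a, which encodes Sca-1, was nevertheless uneven, with a log2 fold change of -1.34 (adjusted p 0.186 by edgeR). It had 52.6 and 57.6 CPM in Asxl2-/- replicates 1 and 3 against 260 CPM in control replicate 2. In the exon-count files it had 69.1 CPM in Asxl2-/- replicate 2 against 40.5 and 148 CPM in control replicates 1 and 3.

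All 10 factors were detected in every library and passed the filter on low counts. Ebf1, Pax5, Pou2af1 and Lef1 rose in Asxl2-/- LSK cells, by 3.24-fold to 4.55-fold, and no factor fell past the threshold by edgeR. These 4 of 10 compare with 331 of 14145 genes tested (2.34%) past an adjusted p of 0.05 in either direction, with 2.04% raised and 0.304% lowered. The members were chosen with earlier results of these data known, so the difference between these shares is not a test of the set. The direction was positive for 8 factors and negative for Tcf3 and Ikzf1, and the median log2 fold change of the 10 was 1.22, against 0.00044 over all genes tested. In bulk RNA, more cells of one type and more RNA per cell cannot be told apart.

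**Figure D1:**
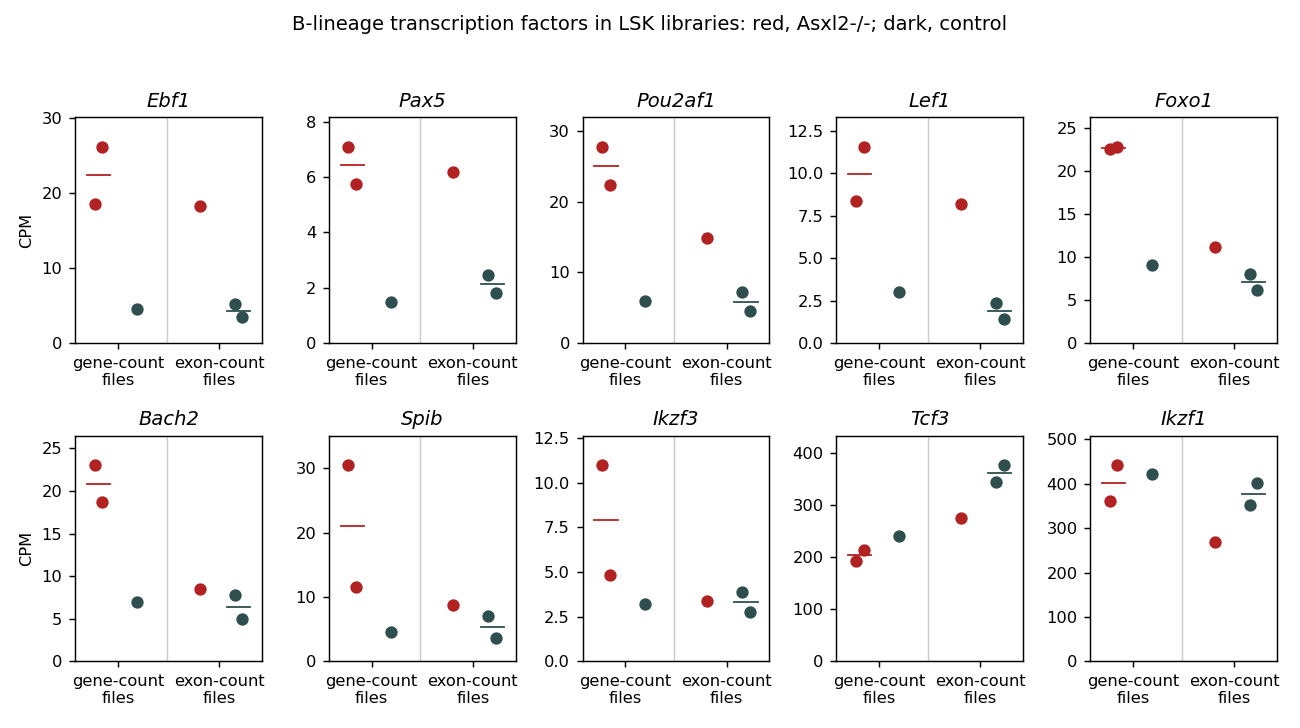
CPM (y axis, linear from 0, own scale per factor) of each factor in each library, split by kind of file on the x axis, with red points for Asxl2-/- and dark points for control libraries and a line at the mean where 2 libraries share a kind. The red points lie above the dark points in both kinds for 7 factors, below them for Tcf3, and overlap for Ikzf1 and Ikzf3.

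The starts of the members' transcripts are shown first for Ebf1, Foxo1, Pax5, Pou2af1 and Lef1, that is, the 4 factors that rose and the factor with the rarest motif match. The windows hold the 250 bases before an annotated start, 5′ to 3′ on the gene's strand, from RefSeq on GRCm38.p6, the assembly that mm10 denotes. Capitals mark matches to the motifs searched, and a window in lower case only has none. Entries were found for 9 factors in 14 windows, and none for Ikzf3. The windows of Pax5, Tcf3 and Ikzf1 belong to annotated starts that differ from the start of the transcript counted.
Ebf1, start of the first exon, chr11:44617850-44618099, plus strand: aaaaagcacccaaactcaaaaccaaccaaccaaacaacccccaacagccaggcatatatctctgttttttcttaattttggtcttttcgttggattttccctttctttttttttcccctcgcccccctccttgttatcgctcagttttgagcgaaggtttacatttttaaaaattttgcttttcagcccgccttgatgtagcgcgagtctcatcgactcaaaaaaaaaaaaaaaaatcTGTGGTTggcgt
Ebf1, second annotated start, chr11:44619978-44620227, plus strand: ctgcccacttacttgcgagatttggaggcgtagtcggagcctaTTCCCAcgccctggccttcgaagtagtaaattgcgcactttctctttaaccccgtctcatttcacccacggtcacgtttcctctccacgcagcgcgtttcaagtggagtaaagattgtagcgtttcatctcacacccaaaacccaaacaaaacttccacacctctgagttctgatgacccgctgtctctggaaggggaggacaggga
Foxo1, chr3:52268087-52268336, plus strand: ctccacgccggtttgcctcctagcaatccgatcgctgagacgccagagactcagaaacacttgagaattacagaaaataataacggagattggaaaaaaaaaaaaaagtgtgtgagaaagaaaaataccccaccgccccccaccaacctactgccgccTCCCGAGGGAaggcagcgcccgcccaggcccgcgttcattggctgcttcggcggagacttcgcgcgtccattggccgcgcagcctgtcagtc
Pax5, chr4:44710695-44710944, minus strand: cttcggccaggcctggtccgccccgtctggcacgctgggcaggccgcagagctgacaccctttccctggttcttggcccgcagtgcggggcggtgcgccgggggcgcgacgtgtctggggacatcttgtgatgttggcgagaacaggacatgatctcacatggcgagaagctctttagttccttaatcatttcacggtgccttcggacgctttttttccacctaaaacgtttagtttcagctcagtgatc
Pou2af1, chr9:51213440-51213689, plus strand: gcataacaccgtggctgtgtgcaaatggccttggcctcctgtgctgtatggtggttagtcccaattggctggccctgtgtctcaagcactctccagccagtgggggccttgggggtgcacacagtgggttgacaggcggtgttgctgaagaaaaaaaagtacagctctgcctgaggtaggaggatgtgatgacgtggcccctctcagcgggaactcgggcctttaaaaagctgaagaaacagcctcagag
Lef1, start of the first exon, chr3:131110047-131110296, plus strand: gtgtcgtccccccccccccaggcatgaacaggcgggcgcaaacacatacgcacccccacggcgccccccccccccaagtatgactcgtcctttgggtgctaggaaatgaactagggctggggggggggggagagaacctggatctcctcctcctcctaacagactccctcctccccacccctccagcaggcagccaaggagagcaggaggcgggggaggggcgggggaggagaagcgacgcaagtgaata
Lef1, start of the alternative first exon, chr3:131112541-131112790, plus strand: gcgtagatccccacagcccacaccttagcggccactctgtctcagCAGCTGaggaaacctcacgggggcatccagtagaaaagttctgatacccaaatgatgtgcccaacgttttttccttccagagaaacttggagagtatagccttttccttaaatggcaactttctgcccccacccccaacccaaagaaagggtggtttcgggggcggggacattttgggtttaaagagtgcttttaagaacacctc

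All windows were searched for 10 motifs on both strands. They were TCCC and GGGA separated by 2 bases for EBF1, CAGCTG or CAGGTG for the E-box bound by E2A, TGGGAA for Ikaros, GTAAACA for FOXO, ATGCAAAT for the octamer, CTTTGAA for LEF/TCF, TGAGTCA for the AP-1-like site of BACH2, CCGGAAGT for ETS factors, GAGGAAGT for PU.1 and SPI-B, and TGTGGTT for RUNX. The ETS and PU.1 motifs share the letters GGAAGT, and the EBF1 and Ikaros motifs share GGGA. The EBF1 motif was present in 0.779% of all 32851 RefSeq windows of this length and, among the members, only in Foxo1, as TCCCGAGGGA at -92 to -83, counted from -1 at the base before the start. RUNX (4.40% of all windows) matched the first Ebf1 window at -12 to -6, Ikaros (21.6%) matched the second Ebf1 window at -207 to -202, the E-box (27.7%) matched Lef1 before its alternative first exon, and ETS (2.88%) matched Tcf3. The other 5 motifs, present in 1.60% to 4.46% of all windows, had no match in the 14 windows. A match describes the letters in the window only.

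Tcf3 and Ikzf1, the broad regulators, were by far the most abundant members and did not pass the test by edgeR. Per kilobase of transcript they held the first 2 places in each of the 6 libraries, from 52.1 to 113 CPM per kb, while the other 8 factors lay between 0.392 and 10.9 CPM per kb. Ikzf1 was first in the 3 gene-count files and Tcf3 in the 3 exon-count files.

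Tcf3 (NM_001164147, 19 exons, chromosome 10, 80409165 to 80433653 on mm10) encodes the E-protein that initiates lymphoid gene expression. It had 193 and 214 CPM in Asxl2-/- replicates 1 and 3 against 241 CPM in control replicate 2, and 275 CPM in Asxl2-/- replicate 2 against 346 and 377 CPM in control replicates 1 and 3. It was the only member whose Asxl2-/- libraries lay below the controls in both kinds of file, a pattern that 23.3% of all genes tested showed. Its log2 fold change was -0.32 (SE 0.0947), with an adjusted p of 0.108 by edgeR. By DESeq2 it was -0.36 and passed, with an adjusted p of 0.0144. Tcf3 was the 1 member of the 10 lowered at an unadjusted p under 0.05 by edgeR, a level reached by 12.6% of all genes tested.

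Ikzf1 (NM_001025597, 8 exons, chromosome 11, 11686213 to 11772926), the zinc-finger protein required for all lymphoid lineages, did not pass the test. Its levels were 362 and 441 CPM in Asxl2-/- replicates 1 and 3 around 421 CPM in control replicate 2, and 269 CPM in Asxl2-/- replicate 2 against 352 and 402 CPM in control replicates 1 and 3. The groups overlapped in the gene-count files, and the fitted log2 fold change was -0.28 (SE 0.145, adjusted p 0.262 by edgeR).

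Ebf1, the factor that specifies the B lineage, had the largest fold change of the set. Its transcript (NM_001290711, 16 exons, chromosome 11, 44618100 to 45008096) had 18.5 and 26.2 CPM in Asxl2-/- replicates 1 and 3 against 4.55 CPM in control replicate 2. In the exon-count files it had 18.3 CPM in Asxl2-/- replicate 2 against 5.16 and 3.46 CPM in control replicates 1 and 3. Each Asxl2-/- library was thus above every control, with raw counts of 522 to 973 against 131 to 269. On the log2 CPM scale the means were 4.34 ± 0.25 (SD, n = 3) and 2.16 ± 0.29 (SD, n = 3), and the log2 fold change was 2.18 (SE 0.232), with an adjusted p of 0.0183 by edgeR. The adjusted p was 0.0682 without Asxl2-/- replicate 1, 0.0536 without control replicate 2 and 0.101 without control replicate 3, with a log2 fold change of at least 2.08 in each.

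Pax5, the commitment factor downstream of Ebf1, was also raised. Its CPM were lower than those of Ebf1, but the transcript counted was shorter, with 1208 bases against 5322. Its transcript (NM_008782, 10 exons, chromosome 4, 44531506 to 44710440) had 7.10 and 5.75 CPM in Asxl2-/- replicates 1 and 3 against 1.49 CPM in control replicate 2, and 6.18 CPM in Asxl2-/- replicate 2 against 2.46 and 1.81 CPM in control replicates 1 and 3. The groups did not overlap, and the 3 Asxl2-/- libraries lay close together. Means were 2.71 ± 0.22 and 0.91 ± 0.26 log2 CPM (SD, n = 3 each), and the log2 fold change was 1.80 (SE 0.260, adjusted p 0.0322 by edgeR). Leaving out Asxl2-/- replicate 1 or 3 or control replicate 2 or 3 gave adjusted p-values of 0.0767 to 0.150 and log2 fold changes of 1.53 to 1.80.

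Foxo1, the forkhead factor that cooperates with Ebf1 and E2A, had 22.5 and 22.8 CPM in Asxl2-/- replicates 1 and 3 against 9.03 CPM in control replicate 2. In the exon-count files its transcript (NM_019739, 3 exons, chromosome 3, 52268337 to 52350109) had 11.1 CPM in Asxl2-/- replicate 2 against 8.06 and 6.20 CPM in control replicates 1 and 3. All Asxl2-/- libraries were above all controls, but the difference was wider in the gene-count files (log2 fold change 1.32) than in the exon-count files (0.65). The fitted log2 fold change of 0.98 (SE 0.209) did not pass the threshold, with an adjusted p of 0.0674 by edgeR. It passed without Asxl2-/- replicate 2 (1.33, adjusted p 0.0366) and without control replicate 1 (1.12, adjusted p 0.0397).

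Pou2af1, the B-cell coactivator of Oct proteins, rose in both kinds of file. Its transcript (NM_011136, 5 exons, chromosome 9, 51213690 to 51240079) had 27.8 and 22.4 CPM in Asxl2-/- replicates 1 and 3 against 5.97 CPM in control replicate 2, and 14.8 CPM in Asxl2-/- replicate 2 against 7.21 and 4.47 CPM in control replicates 1 and 3. The groups did not overlap. Means were 4.33 ± 0.25 and 2.61 ± 0.39 log2 CPM (SD, n = 3 each), with a log2 fold change of 1.70 (SE 0.275, adjusted p 0.0427 by edgeR). The adjusted p was from 0.0893 to 0.160 and the log2 fold change from 1.34 to 1.69 without Asxl2-/- replicate 1 or 3 or control replicate 2 or 3.

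Lef1, the Wnt effector, also rose. Its transcript (NM_010703, 12 exons, chromosome 3, 131110297 to 131224357) had 8.37 and 11.6 CPM in Asxl2-/- replicates 1 and 3 against 2.99 CPM in control replicate 2, and 8.17 CPM in Asxl2-/- replicate 2 against 2.38 and 1.43 CPM in control replicates 1 and 3. Every Asxl2-/- library exceeded every control. Means were 3.14 ± 0.26 and 1.23 ± 0.37 log2 CPM (SD, n = 3 each), and the log2 fold change was 1.92 (SE 0.274, adjusted p 0.0318 by edgeR). Lef1 kept an adjusted p under 0.05 only when control replicate 1 was the library left out (0.0389), and the other 5 omissions gave 0.0644 to 0.127 with log2 fold changes of 1.74 to 2.09.

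Spib, Bach2 and Ikzf3 were higher on average in Asxl2-/- cells and varied most among libraries. Spib (NM_019866, 6 exons, chromosome 7, 44525995 to 44532071) had 30.4 CPM in Asxl2-/- replicate 1, 11.6 CPM in replicate 3 and 4.58 CPM in control replicate 2, and 8.81 CPM in Asxl2-/- replicate 2 against 7.08 and 3.63 CPM in control replicates 1 and 3. Its log2 fold change of 1.44 (SE 0.575) had an adjusted p of 0.173 by edgeR. The libraries were apart in both kinds of file, but Asxl2-/- replicate 1 stood well above the rest, and the log2 fold change was 0.97 without it, 2.20 without Asxl2-/- replicate 2 and 0.71 without control replicate 2.

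Bach2 (NM_001109661, 5 exons, chromosome 4, 32417435 to 32586108), the repressor of plasma cell differentiation, had 23.0 and 18.7 CPM in Asxl2-/- replicates 1 and 3 against 6.91 CPM in control replicate 2. In the exon-count files it had 8.53 CPM in Asxl2-/- replicate 2 against 7.83 and 4.96 CPM in control replicates 1 and 3. The groups were apart by a wide margin in the first kind of file and a narrow one in the second, and the log2 fold change of 1.00 (SE 0.341, adjusted p 0.134 by edgeR) was 0.41 without control replicate 2 and 1.59 without Asxl2-/- replicate 2, where the adjusted p was 0.0481. The antisense gene Bach2os shares 4.66% of the exon bases of Bach2, and reads of the pair cannot be told apart in these unstranded libraries.

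Ikzf3 (NM_011771, 8 exons, chromosome 11, 98464693 to 98546031), the Ikaros relative of maturing B cells, had 11.0 CPM in Asxl2-/- replicate 1, 4.83 CPM in replicate 3 and 3.23 CPM in control replicate 2. In the exon-count files Asxl2-/- replicate 2, at 3.36 CPM, lay between control replicates 1 and 3 at 3.86 and 2.76 CPM. The groups therefore overlapped, and the log2 fold change of 0.65 (SE 0.471, adjusted p 0.402 by edgeR) was 0.25 without Asxl2-/- replicate 1, 1.29 without Asxl2-/- replicate 2 and 0.02 without control replicate 2. Ms4a1 (CD20), a marker of mature B cells, was likewise highest in Asxl2-/- replicate 1, with 10.5 CPM against 3.31 CPM in replicate 3. So were listed markers of other cells, such as the myeloid gene S100a9 (65.5 against 14.1 CPM) and Tlr7 of plasmacytoid dendritic cells (7.10 against 2.22 CPM). Others, such as Rag1 (35.2 against 52.8 CPM), were lower in replicate 1 than in replicate 3. The part of any of these cells in the Spib and Ikzf3 values was not tested.

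Over the set, 7 factors had all Asxl2-/- libraries above the controls within both kinds of file, which 25.4% of all genes tested showed, and 7 were raised at an unadjusted p under 0.05, which 15% of all genes tested reached. For 9 of the 10 members the log2 fold change was higher in the gene-count files than in the exon-count files, with the smallest gap for Tcf3, at -0.24 against -0.39, and the largest for Spib, at 2.02 against 0.79. Lef1 showed the opposite, at 1.70 against 2.11. The gene-count values rest on control replicate 2 as the only control, and the exon-count values on Asxl2-/- replicate 2 as the only Asxl2-/- library. How often this order occurs over all genes tested was not determined.

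**Figure D2:**
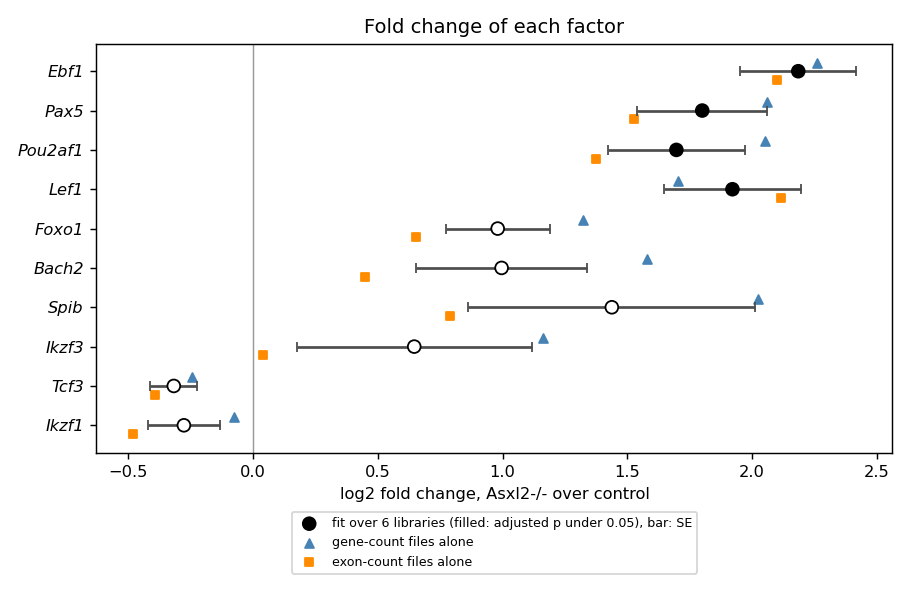
Log2 fold change, Asxl2-/- over control (x axis), of each factor (y axis), as fitted over the 6 libraries with its SE (circle and bar, filled where the adjusted p was under 0.05), and in the gene-count files (triangle) and exon-count files (square) alone, which carry no test. The 4 filled circles lie between 1.70 and 2.18, and only the values of Tcf3 and Ikzf1 lie below 0.

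The other 8 factors were ordered by their median level per kilobase in each group. In the controls Pou2af1 led with 1.74 to 2.81 CPM per kb, followed by Spib (1.30 to 2.54), Pax5 (1.24 to 2.03) and Foxo1 (1.12 to 1.63), whose ranges overlapped from each to the next. A gap separated Foxo1 from Ebf1 (0.650 to 0.970), after which Bach2, Ikzf3 and Lef1 overlapped with Ebf1 and each other. In the Asxl2-/- libraries Pou2af1 again led (5.78 to 10.8), followed by Pax5 (4.76 to 5.87), Spib (3.16 to 10.9), Foxo1 (2.01 to 4.10) and Ebf1 (3.43 to 4.91), which overlapped in turn. Ebf1 stood apart from the next factor, Lef1 (2.23 to 3.16), but the range of Foxo1 overlapped with that of Lef1. Lef1 also overlapped with Bach2 and Ikzf3. These ranges span both kinds of file.

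Replicates of 1 group and 1 kind of file also differed. Control replicate 1 exceeded control replicate 3 for 8 factors, by 0.38 for Foxo1 to 0.96 for Spib on the log2 scale, while Tcf3 and Ikzf1 were lower, and the median over all genes tested was -0.04. Between Asxl2-/- replicates 1 and 3, 5 factors were higher and 5 lower. Spib and Ikzf3 were higher in replicate 1 by 1.39 and 1.18, and Ebf1 and Lef1 were lower there, with log2 ratios of -0.50 and -0.47.

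The exon-count files resolve the factors by exon, for 1 Asxl2-/- library and 2 controls, so these values carry no test. Asxl2-/- replicate 2 exceeded both controls in 16 of 16 exons of Ebf1, 10 of 10 of Pax5, 12 of 12 of Lef1, 5 of 5 of Pou2af1 and 3 of 3 of Foxo1. It lay below both in 19 of 19 exons of Tcf3 and 8 of 8 of Ikzf1. The difference in these 7 genes thus ran along the whole transcript, whereas Bach2 (3 of 5 exons above both), Spib (3 of 6) and Ikzf3 (1 of 8, with 2 below both) were mixed. Exons of 1 gene share their reads' source and are not replicates.

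**Figure D3:**
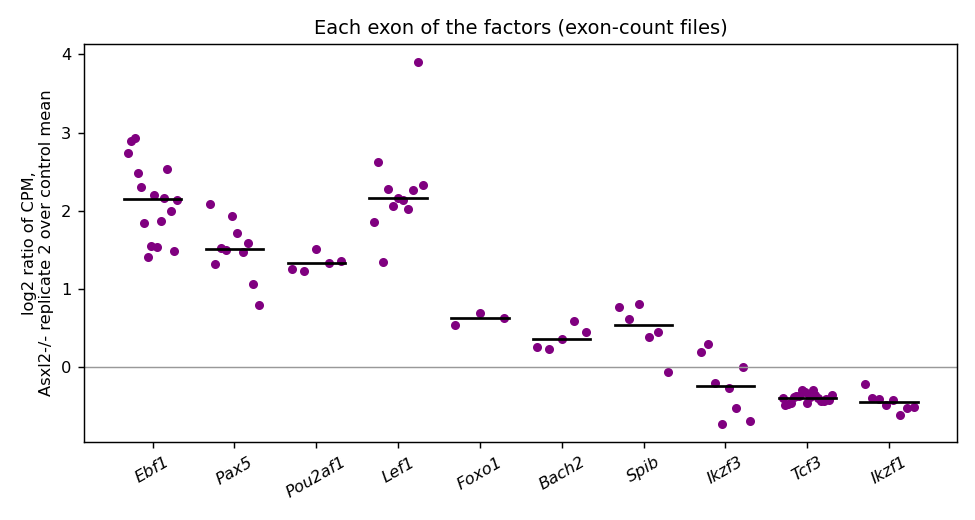
Log2 ratio of CPM in Asxl2-/- replicate 2 to the mean of control replicates 1 and 3 (y axis) for each exon of each factor (x axis, exons in coordinate order within a factor), with a line at the median exon. Exons of Ebf1 lie between 1.41 and 2.93, those of Tcf3 between -0.49 and -0.29.

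Counts at the annotated starts printed above are given for Ebf1 and Lef1, and the second Ebf1 start has no listed exon. The first exon of Ebf1 (chromosome 11, 44618100 to 44618312) had 31 counts in Asxl2-/- replicate 2 and 8 and 1 in control replicates 1 and 3. The first exon of Lef1 (chromosome 3, 131110297 to 131111678) had 112, 32 and 26 counts, while the alternative first exon of 30 bases (131112791 to 131112820) had 0 in all 3 libraries, which allows up to 3 counts in each. Transcripts beginning at that exon were not detectable at this depth. The Lef1 exon of 49 bases (131204256 to 131204304) had 13, 2 and 3 counts, so a count of 0 in the controls carries little weight.

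Alternative exons of the broad regulators took shares that differed by less than counting error. Tcf3 has a pair of listed alternative exons, at 80412827 to 80413062 (236 bases) and 80410398 to 80410624 (227 bases). The former took 26.1% of the counts of the pair in Asxl2-/- replicate 2 (Wilson 95% interval 23.6% to 28.9%), 26.2% in control replicate 1 (23.9% to 28.6%) and 25.2% in control replicate 3 (23.0% to 27.5%), so the intervals overlapped. The Ikzf1 exon at 11748311 to 11748571, absent from 1 of its 2 listed transcripts, took 6.35% of the Ikzf1 exon counts in Asxl2-/- replicate 2 and 6.37% and 6.32% in control replicates 1 and 3, all inside the interval of 5.96% to 6.76% of the first.

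Markers of early B cells were read from a list of 17 pre-B receptor and early B genes. Regulation of these genes by the factors was not tested. Of the 17 genes, 7 rose and none fell, against 2.04% raised and 0.304% lowered over all genes tested. All 17 had a positive fold change, and their median log2 fold change was 1.56, against 0.00044 over all genes tested. This list too was chosen with earlier results of these data known. Cd79a, the signalling chain of the B-cell receptor, had 23.0, 22.5 and 19.1 CPM in Asxl2-/- replicates 1, 2 and 3 and 7.75, 5.63 and 5.31 CPM in control replicates 1, 2 and 3, a log2 fold change of 1.84 (SE 0.192, adjusted p 0.0178 by edgeR). Vpreb3, a surrogate light chain relative, changed by 1.96 (adjusted p 0.0196), Rag1, the recombinase of antigen receptor genes, by 2.24 (adjusted p 0.0268), and Blnk, the adaptor of pre-B receptor signalling, by 2.38 (adjusted p 0.029). Igll1 (2.30) and Vpreb1 (2.16) also rose, the latter being nearly identical to Vpreb2, so that its reads are uncertain. Dntt, the terminal transferase of early lymphoid cells, was at 0.18 with an adjusted p of 0.870. Igll1, Vpreb1 and Dntt were named after their values were seen. The count of 7 was 0 by edgeR without Asxl2-/- replicate 1 or control replicate 3, 2 without Asxl2-/- replicate 3, and 3 without control replicate 2.

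Relatives and partners of the factors were read from lists of their own. None of 14 tested paralogs of 19 listed passed the test by edgeR (3 at an unadjusted p under 0.05, 1 adjusted by DESeq2), and their median log2 fold change was 0.27. Over all genes tested, 2.34% passed by edgeR, and 15% were raised and 12.6% lowered at an unadjusted p under 0.05. The paralog nearest to the threshold, Tcf7l1, a relative of Lef1, had 1.44 (adjusted p 0.0722 by edgeR). Among 21 partners and antagonists, with a median of 0.11, Ets1, a lymphoid ETS factor, rose by 1.09 (SE 0.189, adjusted p 0.049), and it did not pass with scaling by library size only or without Asxl2-/- replicate 1, Asxl2-/- replicate 3, control replicate 2 or control replicate 3. Irf4, a partner of Spib and PU.1, had 1.32 (adjusted p 0.107), Runx1 0.30 (adjusted p 0.103) and Id2, an inhibitor of E-proteins such as Tcf3, -1.37 (adjusted p 0.113).

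Markers of the other cells that LSK preparations can hold were read in the same fit. Of 13 early lymphoid progenitor genes, 1 passed the test, Cnn3, which fell by 1.22 on the log2 scale (adjusted p 0.0174), and the median was -0.01. Cnn3 did not pass without Asxl2-/- replicate 1, control replicate 2 or control replicate 3. No gene passed by edgeR among 12 tested mature B and plasma cell genes (median 0.36, 2 at an unadjusted p under 0.05, 1 adjusted by DESeq2), 9 of plasmacytoid dendritic cells (median -0.11, with 3 and 2), 16 of T and NK cells (0.14, with 3 and 3), 12 myeloid genes (0.23, with 3 and 3) or 8 brain genes (0.25, with 1 and 1). Over all 14145 genes tested, 331 passed by edgeR and 2303 by DESeq2. At an unadjusted p under 0.05 by edgeR, 15% of all genes tested were raised and 12.6% lowered. The 3 myeloid genes with an unadjusted p under 0.05 were all raised. They were S100a9 at 2.36, Itgam at 1.01 and Csf3r at 0.64, with adjusted p-values of 0.0771, 0.0528 and 0.0854 by edgeR. Of the 12 myeloid genes, 7 had a positive fold change.

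Other lists moved with the groups too. Of 12 megakaryocyte genes 6 rose, against 2.04% of all genes tested, with a median of 1.11. Among them were Vwf (2.17, adjusted p 0.019 by edgeR) and Ppbp (2.72, adjusted p 0.0228). That count of 6 was 0 by edgeR without Asxl2-/- replicate 1 or control replicate 3, where 11 had an unadjusted p under 0.05 in each, 1 without Asxl2-/- replicate 3, 2 without control replicate 2, 10 without control replicate 1, 4 without Asxl2-/- replicate 2, 3 with scaling by library size only, and 2 with no term for the kind of file. Of 12 erythroid genes none passed by edgeR, but 8 were lowered at an unadjusted p under 0.05, against 12.6% of all genes tested. By DESeq2 6 passed, and the median by edgeR was -1.04. All 10 tested marrow stromal genes had a positive fold change and none passed by edgeR, at an unadjusted p under 0.05, or adjusted by DESeq2, with a median of 1.25. Summed over the list, the stromal genes had 147 to 323 CPM in the Asxl2-/- libraries and 48.3 to 205 CPM in the controls, and the early B genes 296 to 392 CPM against 115 to 230 CPM. No listed marker in the files was at 0 in all 6 libraries. The part of these markers in the values of the 10 factors was not tested.

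**Figure D4:**
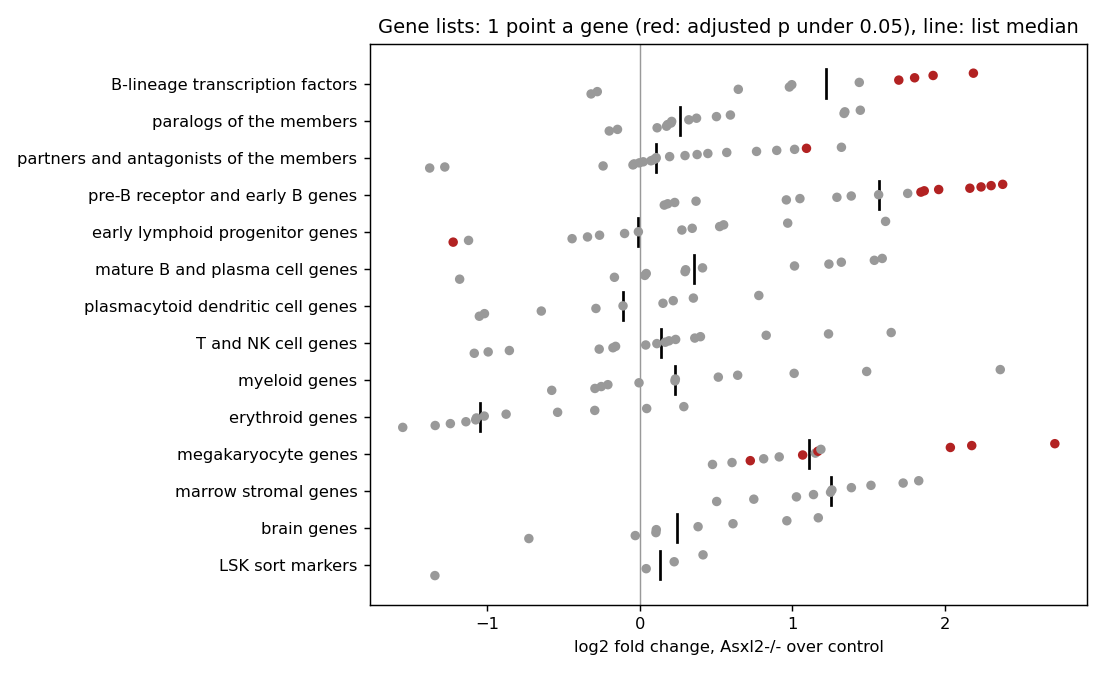
Log2 fold change, Asxl2-/- over control (x axis), of each tested gene of each list (y axis), red where the adjusted p was under 0.05, with a line at the list's median. The B-lineage factors and the early B genes have medians of 1.22 and 1.56, and the lists with red points are these, the partners, the early lymphoid progenitor and the megakaryocyte genes.

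Among the genes whose levels followed Ebf1 most closely over the 6 libraries, after removal of the effect of the kind of file, were Fsbp, Tenc1, Kank3 and Glb1l, with Pearson r between 0.99876 and 0.99938 and a Spearman rho of 1. Of these Tenc1 passed the test, with a log2 fold change of 1.84 and an adjusted p of 0.0498. Among the members, Lef1 was closest to Ebf1 (r = 0.989, rank 80 of 14144 genes), followed by Pax5 (0.970, rank 342), Pou2af1 (0.961, rank 512) and Foxo1 (0.955, rank 608), while Tcf3 had -0.90. The 6 points share the 2 groups and 2 kinds of file, so these values describe the libraries only.

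The direction of each factor held throughout the other fits. All 10 kept their sign in each of 17 other fits, 11 with 6 libraries and 6 with 1 library left out. Ebf1 passed the threshold in 14 of the 17, Pax5 and Pou2af1 in 12 and Lef1 in 11, against 4 for Foxo1, 3 for Bach2 and Spib, 2 for Tcf3 and 1 for Ikzf1 and Ikzf3. All 10 passed in 1 of these fits, which combined a replicate block with the kind of file and left 1 residual degree of freedom.

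**Figure D5:**
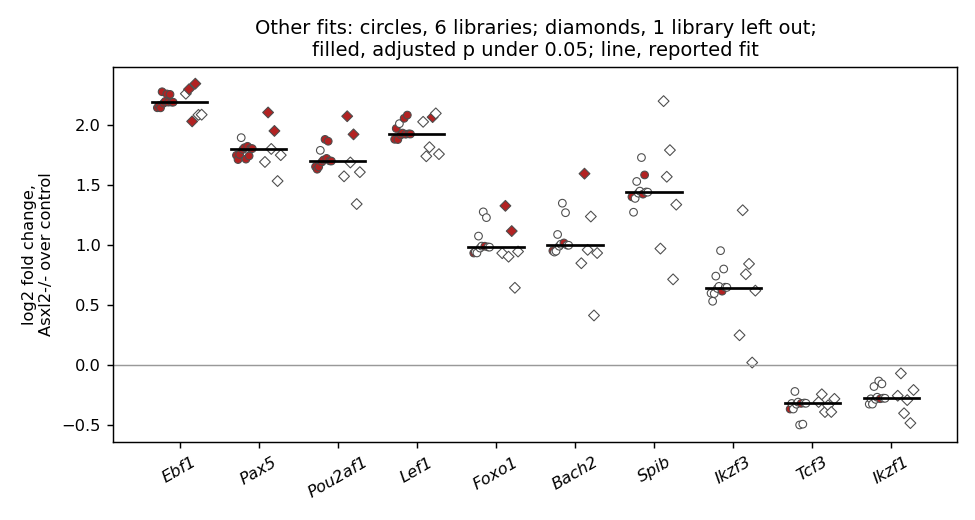
Log2 fold change, Asxl2-/- over control (y axis), of each factor (x axis) in 17 other fits, with circles for fits of all 6 libraries, diamonds for fits with 1 library left out, filled where the adjusted p was under 0.05, and a line at the value reported in the text. Ebf1 stays between 2.03 and 2.34, whereas Ikzf3 ranges from 0.02 to 1.29.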

How the data were processed

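RNA was sequenced from poly(A)-selected, unstranded libraries of sorted LSK cells, described by the study as biological replicates. The authors deposited raw read counts per RefSeq transcript or exon on mm10. STAR, featureCounts and DESeq2 are named in the submitters' processing notes, without versions or roles, and the study tested expression with Cuffdiff, which cannot take counts. Each symbol was represented by its longest transcript, with exon counts summed over it. Counts were tested with edgeR 4.0.16 (R 4.3.3, limma 3.58.1; filterByExpr, TMM, glmQLFTest, kind of file plus group, 3 residual degrees of freedom), with two-sided p-values adjusted by Benjamini-Hochberg over all genes tested at a threshold of 0.05, and DESeq2 1.42.0 was an alternative. Group means and SDs are log2 CPM after removal of the fitted effect of file kind, which makes these SDs somewhat too small. Wilson intervals cover 95% counting error only, since PCR reads without molecular identifiers are not independent molecules.

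All 10 factors were named, as were up to 4 genes of each other list by smallest p-value, all 4 sort markers, and genes from the 5 most like Ebf1; some genes that this rule or the lists hold are not reported here. The members and lists were chosen with earlier results of these data known. Alternatives were DESeq2, limma-voom, other scalings and filters, no file term, the replicate number as a block, genes outside X and Y, another transcript per symbol, each file kind alone and each library left out.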

Additional observations from a re-analysis of the deposited data

How the results depend on the processing

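The count of factors past the threshold was 4 and became 8 with DESeq2 (7 raised and 1, Tcf3, lowered). The count became 1 with scaling by library size only and 0 to 5 with 1 library left out. It was 0 without Asxl2-/- replicate 1, control replicate 2 or control replicate 3, where 7, 7 and 6 factors had an unadjusted p under 0.05 by edgeR, and 1 without Asxl2-/- replicate 3. Over all genes the count of 331 became 2303 with DESeq2 (1174 raised, 1129 lowered), 161 with library size only, and 9 to 1312 with 1 library left out. The genes past the threshold in the other lists, 15 in all, became 44 with DESeq2, 8 with library size only, and 0 to 28 with 1 library left out. The cause was not tested. With 3 residual degrees of freedom, adjusted p-values near 0.05 moved with single libraries. Library size only shifted the median of all genes by 0.098 on the log2 scale, the largest shift of any scaling. The log2 fold changes of the 10 factors kept their sign in every alternative. Low counts limit single exons, such as the last Spib exon by coordinate, with 3, 5 and 1 counts in Asxl2-/- replicate 2 and control replicates 1 and 3.

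The labels give equal replicate numbers no shared source, and the samples were not treated as paired. Deviations of same-numbered samples from their group means correlated at 0.294, -0.00785 and -0.00285, but each such pair holds 1 file of each kind. With the effect of the kind of file removed as well the values were 0.635, 1 and 0.388, of which the value of 1 is fixed by the fit, and each sample then correlated best with its own number. These correlations therefore cannot decide whether the numbers pair the samples, which was not settled. With the replicate block and the kind of file, which leaves 1 residual degree of freedom, 10 factors, 5189 genes and 96 genes of the other lists passed, and with the replicate block without the kind of file, 5 factors and 377 genes passed.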
